A study of Mus musculus with 2 samples.

Results

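The 8 mouse genes described here make prostaglandins or carry their receptors. They are Ptgs1, Ptgs2, Ptges, Ptges3 and Hpgds, which encode enzymes of synthesis, and Ptger2, Ptger4 and Ptgir, which encode receptors. They were chosen by name and matched by symbol to the gene tables of both libraries, where all 8 of 8 were found among 47729 genes. Their UMIs (unique molecular identifiers, 1 per captured transcript molecule) were followed over cell barcodes that had 500 genes or more and no more than 10% of UMIs from mitochondrial genes. One group was 1 library of CD11b-mid Ly6C-mid cells, sorted from mouse bone marrow grown for 5 days with GM-CSF at 40 ng/mL beside human mesenchymal stromal cells (MSC). The MSC had been incubated for 24 h in inserts with 0.4 µm pores, at 1 MSC to 5 marrow cells, so the cultures shared medium without contact. Set against it was 1 library of CD11b-high Ly6C-high cells, sorted after 5 days in the same GM-CSF dose with no MSC. Both came from femur marrow of C57BL/6NCrljOri (H-2b) mice, and cells were stained with a viability dye before sorting. GM-CSF (granulocyte-macrophage colony-stimulating factor) drives growth and maturation of myeloid cells. The labels name RPMI medium for the marrow culture and DMEM for the coculture. Sort gate, coculture, medium and library therefore differ together and cannot be told apart, and the number of mice is not given in the sources used here.

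Prostaglandins are short-lived lipid signals made from arachidonic acid, which phospholipases release from membranes. Cyclooxygenases, encoded by Ptgs1 and Ptgs2, turn it into prostaglandin H2, and terminal synthases turn that into prostaglandin E2, prostaglandin D2, prostacyclin or thromboxane. Ptgs1 is the form that many cells keep on constantly, and Ptgs2 is the form that inflammatory signals switch on. Prostaglandin E2 is known as a mediator of suppression by myeloid cells and by MSC, and it acts in part through the receptors EP2 and EP4, which raise cyclic AMP. The prostacyclin receptor also raises cyclic AMP. Counts were made against the mouse build mm10, and whether any human reads were counted under mouse genes was not tested. Human transcripts from the inserts were not analysed here.

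The start regions of 3 synthesis genes are shown because these were the synthesis genes at least 2-fold higher in coculture within both neutrophil-like and macrophage-like cells, as described further on. RefSeq promoter windows of GRCm38.p6, 250 bases before to 50 bases after the start of each gene, were available for all 8 genes. The Ptges window lies inside the annotated span of its gene, not at the outer end of that span. Capitals mark matches on either strand. The C/EBP motif was TTGCGCAA, and the core of the cyclic AMP response element was TGACGT. The E-box searched for, a site of several helix-loop-helix factors, was CACGTG, and the GC box, a site known for Sp factors, was GGGCGG. A search was also made for the TATA motif TATAAA and for a kappaB motif. In the Ptgs2 window the match to the cyclic AMP core, on the reverse strand, overlaps the E-box.
Ptgs2, chr1:150099781-150100080, plus strand: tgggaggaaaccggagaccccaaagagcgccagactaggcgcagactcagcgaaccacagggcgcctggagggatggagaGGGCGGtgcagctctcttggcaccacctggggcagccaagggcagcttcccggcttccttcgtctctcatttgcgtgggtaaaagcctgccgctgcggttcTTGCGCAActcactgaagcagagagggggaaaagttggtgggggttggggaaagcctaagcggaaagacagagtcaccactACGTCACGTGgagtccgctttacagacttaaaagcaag
Ptges, chr2:30903248-30903547, minus strand: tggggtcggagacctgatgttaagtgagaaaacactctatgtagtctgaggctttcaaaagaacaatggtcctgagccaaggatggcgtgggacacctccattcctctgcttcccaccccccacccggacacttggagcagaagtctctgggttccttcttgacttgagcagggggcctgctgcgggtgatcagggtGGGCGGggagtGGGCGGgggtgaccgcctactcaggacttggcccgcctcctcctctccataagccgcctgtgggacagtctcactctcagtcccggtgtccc
Ptgs1, chr2:36230176-36230475, plus strand: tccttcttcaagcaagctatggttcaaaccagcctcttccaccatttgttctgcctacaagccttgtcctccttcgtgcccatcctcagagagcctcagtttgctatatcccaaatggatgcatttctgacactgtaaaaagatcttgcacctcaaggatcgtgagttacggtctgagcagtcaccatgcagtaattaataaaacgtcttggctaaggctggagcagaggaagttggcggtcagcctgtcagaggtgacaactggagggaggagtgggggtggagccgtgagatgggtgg
The Ptgs2 window held 1 match each to the C/EBP motif, the cyclic AMP core, the E-box and the GC box. Among 32851 promoter windows of the same length, 0.183% held the C/EBP motif, 7.51% the cyclic AMP core, 7.15% the E-box and 35.7% the GC box. The Ptges window held 2 GC boxes and none of the other motifs. None of the 6 motifs was matched in the Ptgs1 window, where TATAAA (13.6% of windows) and the kappaB motif (8.46% of windows) were absent as in the other 2 windows. GC content was 59.3% for Ptgs2, 60.0% for Ptges and 50.7% for Ptgs1, against a median of 52.7% over all windows. These matches describe letters only and say nothing about binding.

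The coculture library kept 3005 of 3134 barcodes with a median of 6031 UMIs and 1966 genes per cell, and the library without coculture kept 1817 of 2180 barcodes with a median of 7016 UMIs and 2124 genes. Barcodes over the mitochondrial limit made up 2.87% of the coculture library and 15.5% of the library without coculture. The 2 libraries shared 2 barcodes among kept cells. Itgam and Ly6c2, the genes behind the CD11b and Ly6C gates, were at 144 and 96.9 CPM (counts scaled to the usual common total of UMIs in the summed cells) in the coculture library, against 351 and 344 CPM without coculture, which is the direction of the gates. The sorts held different cells. Clusters named from marker genes gave, in the coculture library, 909 B lineage-like, 472 eosinophil-like, 417 neutrophil-like, 414 basophil or mast cell-like and 291 mature dendritic cell-like cells. It also held 149 megakaryocyte or platelet-like, 120 macrophage-like, 119 granulocyte-monocyte progenitor-like, 97 T or NK cell-like and 9 stromal or endothelial cell-like cells. Without coculture there were 744 neutrophil-like, 566 macrophage-like, 317 and 154 cells in 2 clusters left unnamed, and 30 progenitor-like cells. Without coculture, 64.1% of all UMIs were in macrophage-like cells. Each group is 1 library without a replicate, so no test was run and every interval given is a 95% interval for counting error only, and where UMIs of a gene sit in a few cells it is too narrow.

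Summed over all kept cells, the inducible cyclooxygenase and the prostaglandin E synthase Ptges were higher in the coculture library, and the receptors Ptger2 and Ptgir were lower. A gene is called higher or lower here when the 2 libraries differ at least 2-fold. Of the 8 genes, 2 were at least 2-fold higher (Ptgs2 and Ptges), 2 were at least 2-fold lower (Ptger2 and Ptgir) and 4 lay between. Among all 8668 genes at 10 CPM or more in either library, 12.7% were higher by this measure and 11.7% were lower, and the median log2 ratio was 0.03. Of the 8 genes, 5 reached 10 CPM in either library, with 1 higher (Ptgs2), 1 lower (Ptgir) and 3 between. The median log2 ratio of the 8 genes was -0.29.

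**Figure D1:**
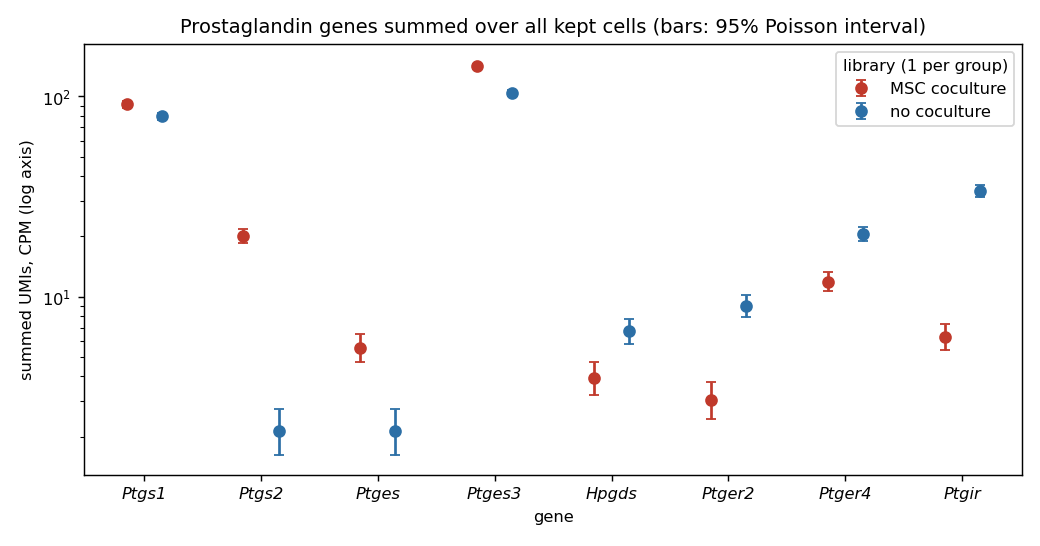
Summed UMIs of each gene in CPM (log axis) over all kept cells, with 1 point per library and bars for the exact 95% Poisson interval. Ptgs2 stood at 20.1 CPM in the MSC coculture library and 2.12 CPM without coculture, while Ptgir stood at 6.33 CPM in the coculture library and 33.7 CPM without coculture.

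Ptgs1 (ENSMUSG00000047250, chromosome 2, 36230426 to 36252272, GRCm38) encodes the constitutive cyclooxygenase. Its sum was 91.4 CPM (88.0 to 94.95, 2659 UMIs) in the coculture library and 79.5 CPM (76.2 to 82.9, 2209 UMIs) without coculture, a log2 ratio of 0.20 (0.12 to 0.28). Cells with a Ptgs1 UMI made up 28.5% of coculture cells and 41.5% of cells without coculture, so the share ran against the CPM and no order was read from it. Different cells held these UMIs in the 2 libraries. In the coculture library, neutrophil-like cells held 831 of the 2659 UMIs, macrophage-like cells 580, eosinophil-like cells 525 and megakaryocyte or platelet-like cells 408. Without coculture, macrophage-like cells held 1663 of the 2209 UMIs. When every cell counted equally (mean of per-cell CPM), the log2 ratio was -0.24, so the direction over all cells depended on how cells were weighted, and with TMM scaling of the sums it was 0.059. By level, macrophage-like (237 CPM, 218 to 257) and neutrophil-like cells (228 CPM, 213 to 245) led in the coculture library and their intervals overlapped. Megakaryocyte or platelet-like cells followed at 136 CPM (123 to 150), then eosinophil-like (64.1 CPM), progenitor-like (62.4 CPM) and stromal or endothelial cell-like cells (61.4 CPM), whose intervals overlapped. Basophil or mast cell-like cells stood at 32.5 CPM, mature dendritic cell-like cells at 11.1 CPM and B lineage-like cells at 2.33 CPM (8 UMIs), and T or NK cell-like cells had 0 UMIs. Without coculture the highest class was the macrophage-like one at 93.4 CPM (88.9 to 98.0). The 2 unnamed clusters stood at 69.1 and 64.0 CPM, progenitor-like cells at 52.2 CPM and neutrophil-like cells at 46.5 CPM (40.5 to 53.1), and of these only the unnamed clusters lay wholly above the neutrophil-like interval.

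Ptgs2 (ENSMUSG00000032487, chromosome 1, 150100031 to 150108227), whose promoter window is printed above, encodes the inducible cyclooxygenase. It had 586 UMIs and 20.1 CPM (18.5 to 21.8) in the coculture library, against 59 UMIs and 2.12 CPM (1.62 to 2.74) without coculture, a log2 ratio of 3.25 (2.86 to 3.66) or 9.49-fold. These UMIs came from 137 coculture cells (4.56%) and 36 cells without coculture (1.98%). Few cells carried most of them. In the coculture library 14 cells held 50% of the Ptgs2 UMIs, and the 2 highest cells, with 59 and 45 UMIs, were both stromal or endothelial cell-like. Of 586 UMIs, 232 were in neutrophil-like, 163 in stromal or endothelial cell-like, 146 in macrophage-like and 29 in basophil or mast cell-like cells, and 20 of those 29 were in 1 cell. The stromal or endothelial cell-like class stood at 715 CPM (610 to 834), far above neutrophil-like (63.8 CPM, 55.9 to 72.6) and macrophage-like cells (59.7 CPM, 50.4 to 70.2), whose intervals overlapped. Basophil or mast cell-like cells followed at 8.26 CPM and mature dendritic cell-like cells at 5.06 CPM. B lineage-like cells had 3 UMIs, eosinophil-like cells 2, megakaryocyte or platelet-like cells 1, while no UMI was found in T or NK cell-like or in progenitor-like cells. Without coculture, neutrophil-like cells stood at 5.19 CPM (3.32 to 7.72) and macrophage-like cells at 1.63 CPM (1.09 to 2.34).

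Ptges (ENSMUSG00000050737, chromosome 2, 30889471 to 30929863) encodes the microsomal prostaglandin E synthase that often rises together with Ptgs2. It had 162 UMIs and 5.57 CPM (4.74 to 6.50) in the coculture library, against 59 UMIs and 2.12 CPM (1.62 to 2.74) without coculture, a log2 ratio of 1.39 (0.95 to 1.85). The shares of cells with a UMI ran the other way, at 2.36% of coculture cells and 3.08% of cells without coculture, and no order was read from them. Within the coculture library the UMIs lay in neutrophil-like cells (67), stromal or endothelial cell-like cells (60) and macrophage-like cells (16). The stromal or endothelial cell-like class stood at 263 CPM (201 to 339), neutrophil-like cells at 18.4 CPM (14.3 to 23.4) and macrophage-like cells at 6.54 CPM (3.74 to 10.6), and these 3 intervals did not overlap. All other coculture classes of 20 or more cells were at 1.34 CPM or less, with 0 UMIs in T or NK cell-like and in B lineage-like cells. Without coculture, neutrophil-like cells were at 6.49 CPM (4.38 to 9.26) and macrophage-like cells at 1.24 CPM (0.77 to 1.87). Ptges overlaps the pseudogene Gm13400 on the same strand, which had 0 UMIs in the coculture library and 8 without coculture.

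The 9 stromal or endothelial cell-like cells, 0.300% of coculture cells, held 27.8% of the Ptgs2 and 37.0% of the Ptges UMIs of that library. Of the 9 cells, 7 had Ptgs2, with a median of 22 UMIs in those 7, and 8 had Ptges, with a median of 8.5 UMIs in those 8. They were defined by matrix genes of connective tissue, with Sparc at 3281 CPM, Col1a2 at 1110, Col3a1 at 509, Dcn at 496 and Col1a1 at 483 CPM in the class. Of the 12 stromal or endothelial markers, 8 were at 20 CPM or more in these cells and at least 2-fold higher than in all others. The endothelial genes Cdh5 and Vwf had 0 UMIs in them. Over all kept cells the summed list stood at 205 CPM in the coculture library and 47.8 CPM without coculture, where 5 of the 12 markers (Col1a2, Col3a1, Dcn, Lum and Sparc) had 0 UMIs. With these 9 cells left out, a setting chosen after seeing the data, Ptgs2 was at 14.7 CPM (13.3 to 16.1) in the coculture library and 2.12 CPM without coculture, a log2 ratio of 2.79 (2.39 to 3.21). Ptges was then at 3.53 CPM (2.88 to 4.29) in the coculture library and 2.12 CPM without coculture, a log2 ratio of 0.73 (0.26 to 1.22). It was no longer 2-fold higher, nor was it without the 5% of cells with most UMIs (0.98), without the macrophage-like clusters (0.56, also chosen after seeing the data) or with each cell weighted equally (0.23). The other 6 genes had 0 to 59 UMIs in these cells. The species of these 9 cells was not tested.

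Ptges3 (ENSMUSG00000071072, chromosome 10, 128058954 to 128077272) encodes the cytosolic prostaglandin E synthase, a protein better known as a co-chaperone of heat shock proteins. It was detected in every class of 20 or more cells in both libraries. The sum was 142 CPM (137 to 146) in the coculture library and 104 CPM (100 to 108) without coculture, a log2 ratio of 0.45 (0.38 to 0.52), with a UMI in 50.5% of coculture cells and 51.6% of cells without coculture. Among coculture classes of 20 or more cells it stood highest at 220 CPM (204 to 238) in megakaryocyte or platelet-like cells. The others were 188 CPM in progenitor-like, 158 CPM in eosinophil-like, 136 CPM in T or NK cell-like, 122 CPM in B lineage-like and in macrophage-like, 106 CPM in mature dendritic cell-like, 98.9 CPM in basophil or mast cell-like and 94.6 CPM (84.9 to 105) in neutrophil-like cells. The last 3 had overlapping intervals. Without coculture it ran to 147 CPM in progenitor-like cells, with 119 and 118 CPM in the 2 unnamed clusters, 107 CPM in macrophage-like and 68.5 CPM in neutrophil-like cells.

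Hpgds (ENSMUSG00000029919, chromosome 6, 65117293 to 65144908) encodes the haematopoietic prostaglandin D synthase. It was sparse, with 114 UMIs and 3.92 CPM (3.23 to 4.71) in the coculture library and 187 UMIs and 6.73 CPM (5.80 to 7.77) without coculture, a log2 ratio of -0.78 (-1.13 to -0.44). Macrophage-like (11.8 CPM, 7.94 to 17.0), B lineage-like (10.5 CPM, 7.33 to 14.5) and megakaryocyte or platelet-like cells (6.01 CPM, 3.56 to 9.50) held most of the coculture UMIs, with overlapping intervals. T or NK cell-like cells were at 10.1 CPM from 2 UMIs in 1 cell (1.22 to 36.5), too few to place in the order. Mast cells are a known source of prostaglandin D2, and basophil or mast cell-like cells had 4 UMIs (1.14 CPM, 0.31 to 2.92). Without coculture, macrophage-like cells (8.48 CPM) held 151 of the 187 UMIs and unnamed cluster 16 (7.49 CPM) 24, with 1.95 CPM in neutrophil-like cells. With each cell weighted equally the log2 ratio over all cells was 0.10, so its direction too depended on the weighting of cells.

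**Figure D2:**
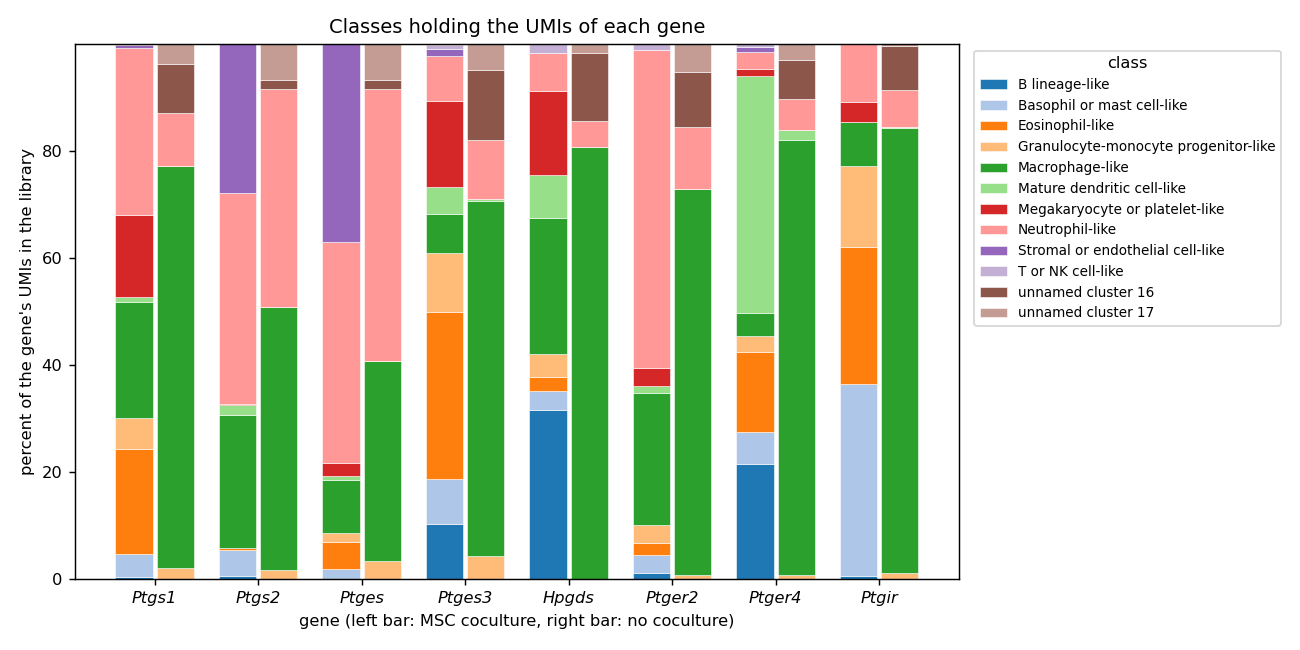
Percent of each gene's UMIs held by each class of cells (stacked to 100% per bar), with the MSC coculture library as the left bar and the library without coculture as the right bar of each pair. Neutrophil-like and stromal or endothelial cell-like cells together held most of the coculture Ptgs2 (232 and 163 of 586 UMIs) and Ptges (67 and 60 of 162 UMIs), and macrophage-like cells held most of the Ptgir without coculture (779 of 937 UMIs).

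Of the 3 receptor genes, Ptger2 and Ptgir were lower in the coculture library when summed over all cells, and Ptger4 lay between. The coculture class with the highest CPM differed between them, though for Ptger2 and Ptgir its interval overlapped that of another class. Ptger2 (ENSMUSG00000037759, chromosome 14, 44988195 to 45003820) encodes EP2, a prostaglandin E2 receptor that raises cyclic AMP. It had 89 UMIs and 3.06 CPM (2.46 to 3.76) in the coculture library, against 250 UMIs and 8.998 CPM (7.92 to 10.2) without coculture, a log2 ratio of -1.56 (-1.92 to -1.202). Neutrophil-like cells held 53 of the 89 coculture UMIs (14.6 CPM, 10.9 to 19.1) and macrophage-like cells 22 (8.99 CPM, 5.63 to 13.6), and each other coculture class had 3 UMIs or fewer. Without coculture, unnamed cluster 17 (11.0 CPM), macrophage-like cells (10.1 CPM) and unnamed cluster 16 (8.11 CPM) had overlapping intervals, and neutrophil-like cells stood at 6.27 CPM (4.199 to 9.003). Within neutrophil-like cells the log2 ratio of Ptger2 was 1.22, and within macrophage-like cells -0.17. The lower sum of Ptger2 over all cells therefore did not show as a 2-fold lower level in either class. Its antisense neighbour Gm17173 had 2 UMIs in the coculture library and 16 without coculture, and whether counting used strand is not given in the sources used here.

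Ptger4 (ENSMUSG00000039942, chromosome 15, 5206661 to 5244187) encodes EP4, which also raises cyclic AMP and is known for its part in dendritic cell migration. It had 346 UMIs and 11.9 CPM (10.7 to 13.2) in the coculture library, against 571 UMIs and 20.6 CPM (18.9 to 22.3) without coculture, a log2 ratio of -0.79 (-0.99 to -0.59). The classes behind these sums differed. Mature dendritic cell-like cells held 153 of the 346 coculture UMIs at 77.4 CPM (65.6 to 90.7), with a UMI in 96 of 291 cells, and B lineage-like cells followed at 21.5 CPM (16.9 to 27.0). Eosinophil-like (6.34 CPM), macrophage-like (6.13 CPM) and basophil or mast cell-like cells (5.98 CPM) did not differ beyond counting error, and neutrophil-like cells stood at 3.02 CPM. Without coculture, macrophage-like cells held 465 of 571 UMIs at 26.1 CPM (23.8 to 28.6), unnamed clusters 17 and 16 stood at 14.3 and 13.1 CPM, and neutrophil-like cells at 7.13 CPM. The 4 mature dendritic cell-like cells found there held 10 UMIs. With macrophage-like clusters left out of both libraries, a setting chosen after seeing the data, the log2 ratio was 0.23, and with each cell weighted equally it was 0.088. The direction over all cells therefore depended on which cells were counted and how they were weighted. Ptger4 overlaps Ttc33 on the opposite strand, which had 517 UMIs in the coculture library and 651 without coculture, so reads of the 2 genes could be mixed if counting ignored strand.

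Ptgir (ENSMUSG00000043017, chromosome 7, 16906490 to 16910905) encodes the prostacyclin receptor, and its log2 ratio was the lowest of the 8. It had 184 UMIs and 6.33 CPM (5.44 to 7.31) in the coculture library, against 937 UMIs and 33.7 CPM (31.6 to 35.95) without coculture, a log2 ratio of -2.41 (-2.65 to -2.19), or 5.33-fold lower. A Ptgir UMI was found in 5.56% of coculture cells and 24.9% of cells without coculture. Basophil or mast cell-like cells were highest in the coculture library (18.8 CPM, 14.5 to 23.9, 66 of 184 UMIs). Progenitor-like cells followed at 11.6 CPM (7.74 to 16.8), overlapping that class above and the macrophage-like (6.13 CPM, 3.43 to 10.1) and neutrophil-like cells (5.50 CPM, 3.36 to 8.49) below. Eosinophil-like cells stood at 5.73 CPM (4.21 to 7.63). T or NK cell-like and mature dendritic cell-like cells had 0 UMIs and B lineage-like cells 1. Without coculture, macrophage-like cells held 779 of 937 UMIs at 43.7 CPM (40.7 to 46.9), followed by unnamed cluster 16 (24.3 CPM), neutrophil-like cells (14.1 CPM) and progenitor-like cells (11.9 CPM), and unnamed cluster 17 stood at 2.53 CPM.

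**Figure D3:**
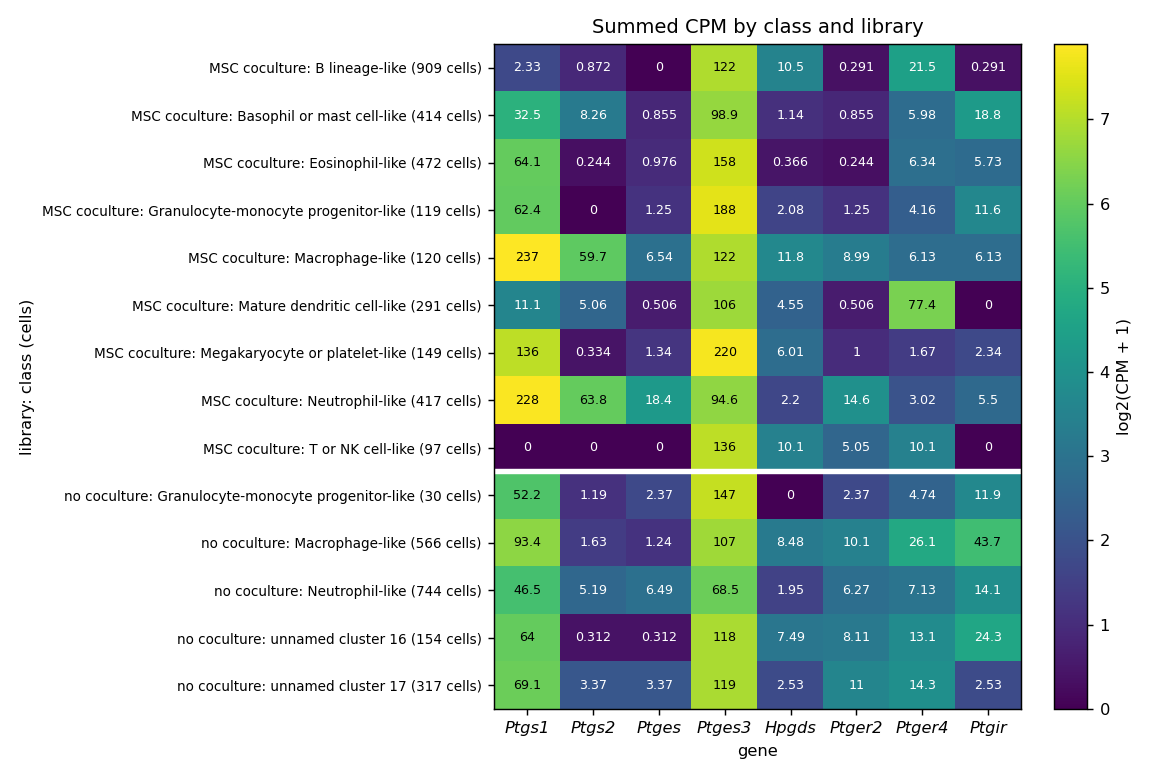
Level of each gene (columns, printed as CPM and coloured by log2(CPM + 1)) in each class of at least 20 cells (lines), with MSC coculture classes above the white line and classes without coculture below it. Ptgs1 and Ptgs2 were high in coculture macrophage-like and neutrophil-like cells, and Ptges was highest in coculture neutrophil-like cells (18.4 CPM). Ptger4 was high in coculture mature dendritic cell-like cells (77.4 CPM) and Ptgir in macrophage-like cells without coculture (43.7 CPM).

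Because the sorts held different cells, the 8 genes were also set side by side within classes that had at least 20 cells in each library. In neutrophil-like cells (417 in the coculture library, 744 without coculture) both cyclooxygenases, Ptges and Ptger2 were at least 2-fold higher in the coculture library, Ptger4 and Ptgir at least 2-fold lower, and Ptges3 and Hpgds between. Among 7386 genes at 10 CPM or more in these cells, 12% were higher by 2-fold or more and 6.54% were lower. Ptger4 and Hpgds were under 10 CPM in these cells of both libraries, so they are not among the 7386. Different clusters hold this class in the 2 libraries. In the coculture library 393 of the 417 cells lay in cluster 1, led by Cxcl3, Arg1, Retnlg and Nos2, and 24 in cluster 14, led by Ltf, Camp and Ngp. Without coculture 629 of the 744 lay in cluster 15, led by Asprv1 and Hp, and 114 in cluster 14. Clusters 1 and 15 also differed in markers. The monocyte genes Fn1 (1338 CPM in cluster 1, 8.59 CPM in cluster 15) and Csf1r (265 and 56.9 CPM) were higher in cluster 1. Ly6c2, of the same list, was at 171 and 185 CPM. The neutrophil genes S100a9 (25570 and 91906 CPM) and Csf3r (143 and 448 CPM) were lower in cluster 1, as were S100a8, Ly6g, Ngp, Camp, Mmp9 and Lcn2. The other neutrophil markers were higher there, namely Retnlg (3699 and 1176 CPM), Stfa2l1 (2561 and 1113 CPM), Mmp8 (2356 and 1804 CPM), Cxcr2 (374 and 306 CPM) and Ltf (34.9 and 29.3 CPM). The ratios in this class may therefore not compare like cells.

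Ptgs1 in neutrophil-like cells was at 228 CPM (213 to 245) in the coculture library and 46.5 CPM (40.5 to 53.1) without coculture, a log2 ratio of 2.30 (2.08 to 2.52), 4.92-fold. It had a UMI in 269 of 417 coculture cells and 152 of 744 cells without coculture. Ptgs2 stood at 63.8 CPM in the coculture cells and 5.19 CPM without coculture, a log2 ratio of 3.62 (3.01 to 4.29), with a UMI in 77 coculture cells and 16 cells without coculture. Ptges stood at 18.4 CPM in the coculture cells and 6.49 CPM without coculture, a log2 ratio of 1.51 (0.86 to 2.18). So both cyclooxygenases and Ptges were higher within this class, while the other prostaglandin E synthases were not: Ptges3, described below, and Ptges2, at 9.62 CPM in the coculture cells and 10.2 CPM without coculture (-0.08), lay between. Among the receptors, Ptger2 stood at 14.6 CPM in the coculture cells and 6.27 CPM without coculture (log2 ratio 1.22, 0.54 to 1.92), though at clustering resolution 0.4 the ratio was 0.87, under 2-fold. Ptger4 stood at 3.02 CPM in the coculture cells and 7.13 CPM without coculture (-1.24, -2.37 to -0.22), and Ptgir at 5.50 CPM in the coculture cells and 14.1 CPM without coculture (-1.35, -2.16 to -0.61). Ptges3 stood at 94.6 CPM in the coculture cells and 68.5 CPM without coculture (0.46, 0.24 to 0.69), and Hpgds, with 8 UMIs in the coculture cells and 9 without coculture, was not separated at this depth (0.18, -1.40 to 1.72).

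The single neutrophil-like cluster with 20 or more cells of both libraries was cluster 14, with 24 coculture cells and 114 cells without coculture. Within it Ptgs1 stood at 195 CPM (45 UMIs) in the coculture cells and 40.9 CPM (60 UMIs) without coculture, a log2 ratio of 2.25 (1.66 to 2.83). Ptges had 1 UMI in the coculture cells (4.32 CPM, 0.11 to 24.1) and 7 UMIs without coculture (4.77 CPM, 1.92 to 9.82), so its difference in the class does not show in this cluster, where the counts are few. Ptger2 had 4 UMIs in the coculture cells (17.3 CPM) and 4 UMIs without coculture (2.72 CPM), a log2 ratio of 2.67 (0.24 to 5.09). Ptgir had 0 UMIs in the coculture cells and 33 UMIs without coculture (22.5 CPM), with the upper end of its log2 interval at -0.41. Ptges3 was at -0.03 (-1.16 to 0.94), and Hpgds and Ptger4 had 8 UMIs or fewer in each library. In this cluster 13.6% of 6562 genes were higher by 2-fold or more and 16.7% were lower. Ptgs2, by contrast, had 0 UMIs in the 24 coculture cells and 2 UMIs in the 114 cells without coculture, so all 232 Ptgs2 UMIs of coculture neutrophil-like cells lay in cluster 1. Cluster 1 (68.1 CPM) held a single cell without coculture, so its Ptgs2 level has no counterpart of the same cluster.

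In macrophage-like cells (120 in the coculture library, 566 without coculture) Ptgs1, Ptgs2 and Ptges were at least 2-fold higher in the coculture library, Ptger4 and Ptgir at least 2-fold lower, and Ptges3, Hpgds and Ptger2 between. Among 8332 genes at 10 CPM or more in these cells, 6.96% were higher by 2-fold or more and 9.99% were lower. Ptges was under 10 CPM in these cells of both libraries, so it is not among the 8332. No cluster was shared, since the 120 coculture cells were cluster 12, led by C1qa and Ccl24, and the 566 cells without coculture were cluster 18, led by Wfdc17 and Mrc1. Of the macrophage genes, C1qa was higher in cluster 12 (1113 CPM, against 66.7 CPM in cluster 18). Gpnmb (10.6 and 1061 CPM) and Mrc1 (10.6 and 153 CPM) were lower in cluster 12. The ratios in macrophage-like cells may therefore not compare like cells either. Ptgs1 stood at 237 CPM in the coculture cells and 93.4 CPM without coculture, a log2 ratio of 1.34 (1.205 to 1.48). Ptgs2 stood at 59.7 CPM in the coculture cells and 1.63 CPM without coculture, a log2 ratio of 5.20 (4.61 to 5.82). Ptges stood at 6.54 CPM in the coculture cells and 1.24 CPM without coculture (2.40, 1.38 to 3.40), from 16 UMIs in the coculture cells and 22 without coculture. The receptors Ptger4, at 6.13 CPM in the coculture cells and 26.1 CPM without coculture (-2.09, -2.94 to -1.35), and Ptgir, at 6.13 CPM in the coculture cells and 43.7 CPM without coculture (-2.84, -3.68 to -2.10), were both lower. Ptger2 stood at 8.99 CPM in the coculture cells and 10.1 CPM without coculture, with an interval on both sides of 0 (-0.17, -0.88 to 0.47).

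The coculture macrophage-like values of Ptgs2 and Ptges rested on few cells whose class depended on the clustering. At resolution 1.2, where the data are split more finely, 93 of the 120 cells stayed macrophage-like and 27 joined the neutrophil-like class. The 27 cells held 106 of the 146 Ptgs2 UMIs (126 CPM), and the 93 cells held 40 (24.9 CPM). Of the 16 Ptges UMIs, the 27 cells held 13 (15.5 CPM) and the 93 cells held 3 (1.87 CPM). The 27 cells had a median of 29077 UMIs, against 15384 UMIs in the 93 cells and 6857 UMIs in cluster 1. They carried genes high in cluster 1, Arg1 (4329 CPM), Cxcl3 (3944 CPM) and S100a8 (15543 CPM), together with the macrophage genes C1qa (299.98 CPM) and C1qb (540 CPM), while cluster 1 had C1qa at 4.99 CPM. Doublets were not removed, and their part in these values was not tested. At that resolution the macrophage-like log2 ratio of Ptgs2 was 3.94 and that of Ptges 0.60, and at resolution 0.4 all 120 cells were neutrophil-like, so no macrophage-like ratio could be formed.

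**Figure D4:**
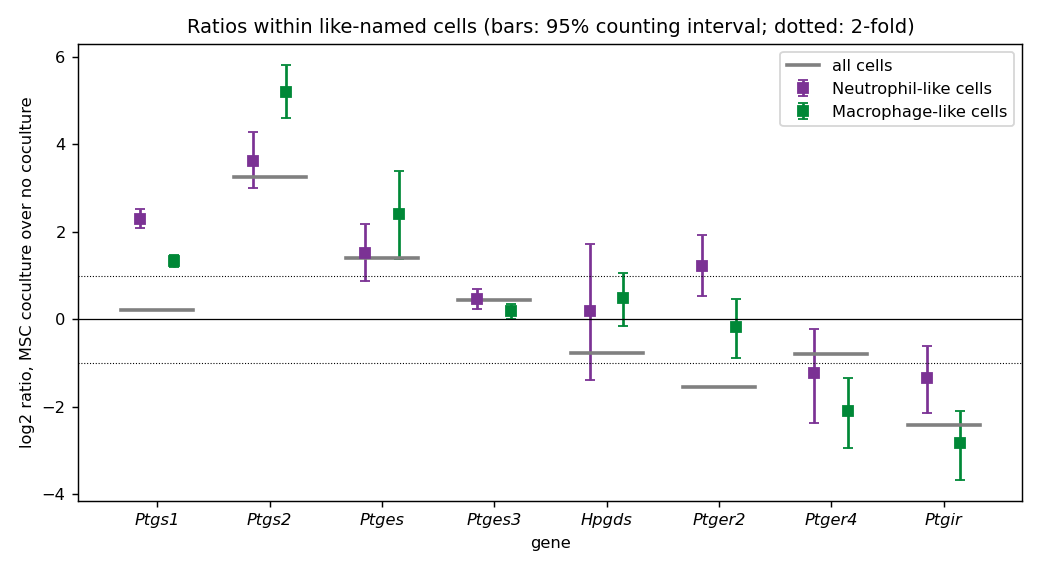
Log2 ratio of CPM, MSC coculture over no coculture, for each gene in neutrophil-like cells and in macrophage-like cells (squares with exact 95% counting intervals), with grey dashes for all cells and dotted lines at 2-fold. Ptgs1, Ptgs2 and Ptges lay above 1 and Ptger4 and Ptgir below -1 in both classes, whereas Ptgs1 over all cells was at 0.20.

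Progenitor-like cells (119 in the coculture library, 30 without coculture, all in 1 cluster) had enough UMIs to place a ratio for 3 of the 8 genes, and these 3 ratios were under 2-fold. Among 7525 genes there, 17.1% were higher by 2-fold or more and 7.27% lower. Ptgs1 stood at 62.4 CPM in the coculture cells and 52.2 CPM without coculture (log2 ratio 0.26, -0.24 to 0.78), Ptges3 at 188 CPM in the coculture cells and 147 CPM without coculture (0.36, 0.07 to 0.66) and Ptgir at 11.6 CPM in the coculture cells and 11.9 CPM without coculture (-0.03, -1.11 to 1.18), an interval that reaches past 2-fold on both sides. Each of the other 5 genes had 10 UMIs or fewer in these cells of either library, too few to place a ratio.

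Shares of cells with a UMI depend on depth, so each cell was also thinned to 2000 UMIs, which left out 265 of 3005 coculture cells and 140 of 1817 cells without coculture. In neutrophil-like cells at that depth, Ptgs1 was found in 32.9% of 383 coculture cells and 8.76% of 639 cells without coculture. Ptgs2 was found in 6.79% of the coculture cells and 0.63% without coculture, Ptges in 3.66% of the coculture cells and 1.10% without coculture, and Ptgir in 0.78% of the coculture cells and 2.19% without coculture. These shares move with the random draw of UMIs. Another draw at the same depth gave Ptgs2 in 7.83% of the coculture cells and 1.41% without coculture, Ptges in 4.70% of the coculture cells and 1.25% without coculture, and Ptgir in 1.31% of the coculture cells and 2.82% without coculture. The gap for Ptges moved with depth. Thinned to 4000 UMIs, it was found in 4.84% of 310 coculture neutrophil-like cells and 3.47% of 461 without coculture. Thinned to 1000 UMIs, the shares were 2.92% and 0.69%. B lineage-like cells served as a rough measure of free RNA in the droplets of the coculture library, and their own expression of these genes was not tested. At 2000 UMIs they had Ptgs1, Ptges and Ptgir in 0 of 785 coculture cells (exact interval up to 0.469%) and Ptgs2 in 1 of 785 (0.13%), and their median depth unthinned was 2866 UMIs, against 7107 UMIs in coculture neutrophil-like cells. The library without coculture had 1 such cell, so no such measure was available there. In macrophage-like cells, Ptgs1 was found in 33.1% of 118 coculture cells and 19.6% of 560 cells without coculture, Ptgs2 in 5.08% of the coculture cells and 0.54% without coculture, and Ptgir in 2.54% of the coculture cells and 7.86% without coculture. Over all cells at this depth, Ptgs2 was found in 1.496% of coculture cells and 0.60% without coculture (in the other draw, 1.97% of coculture cells and 1.014% without coculture), and Ptgir in 1.06% of coculture cells and 3.88% without coculture.

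Within coculture neutrophil-like cells Ptgs2 was uneven, with up to 15 UMIs in a cell, 77 of 417 cells positive and 15 cells holding 50% of its UMIs. Of the 35 cells with Ptges, 13 (37.1%) also had Ptgs2, beside 16.8% of the cells without Ptges. Cells with both had a median of 10502 UMIs, against 7107 UMIs in the class, so depth moved with the overlap and its part was not tested. Ptgs1 was found in 61.0% of cells with Ptgs2 and 65.3% of cells without it. Over the whole library without coculture, no cell had both Ptgs2 and Ptges among 36 and 56 positive cells. There 2.04% of the cells without Ptges had Ptgs2, so with 56 Ptges cells no absence was read from this.

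Patterns over classes were compared with those of other genes by Pearson correlation of log2(CPM + 5) over 13 sums, each a class of 50 or more cells in 1 library, which share their library and its depth. Most like Ptgs2 were Nos2 (r = 0.95), encoding inducible nitric oxide synthase, Ackr3 (0.95), an atypical chemokine receptor, and Cxcl3 (0.94), a chemokine that attracts neutrophils. Nos2 reached 133 CPM and Cxcl3 5163 CPM in coculture neutrophil-like cells. Ptgs1 was most like Pgam1 (0.95), a glycolytic enzyme, and then Slc2a8 (0.93) and Fam217b (0.90). For Ptges the nearest were Kcnn3 (0.94), Cped1 (0.93) and 9830107B12Rik (0.93), all highest in neutrophil-like cells. For Ptger4 they were Zbtb18 (0.92), Myo1g (0.92) and Nfe2l1 (0.90), all highest in mature dendritic cell-like cells. Ptger2 was most like Tbkbp1 (0.92), Pde8a (0.92) and B430306N03Rik (0.91), and Ptges3 most like Fra10ac1 (0.95), Skiv2l2 (0.94) and Rnaseh2a (0.93). The likeness was weaker for Hpgds, whose nearest were H2-DMa (0.88), Mndal (0.85) and Plekho1 (0.85), and for Ptgir, with Osbpl8 (0.83), Snx24 (0.83) and Chpt1 (0.81).

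Beyond the 8 genes, 85 names of the wider prostaglandin pathway were listed, of which 83 were in the files and 47 reached 10 CPM in either library. Of these 47, 13 were higher by 2-fold or more, 9 lower by as much and 25 in between. Their median log2 ratio was -0.16, beside 12.7% higher, 11.7% lower and a median of 0.03 over all genes. Of 7 genes that release arachidonic acid or related lipids, 2 were higher, 2 lower and 3 between. The cytosolic phospholipase Pla2g4a, the main supplier of arachidonic acid for prostaglandins, was among the last, at 29.3 CPM in the coculture library and 25.8 CPM without coculture (log2 ratio 0.18). Pla2g16 stood at 44.6 CPM in the coculture library and 12.8 CPM without coculture (1.80), and the lysosomal phospholipase Pla2g15 at 17.4 CPM in the coculture library and 74.9 CPM without coculture (-2.11).

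Of 7 other synthases and reductases, 2 were higher, none lower and 5 between. The aldo-keto reductase Akr1c18, known to use progesterone and prostaglandins as substrates, stood at 117 CPM (3392 UMIs) in the coculture library and 0.144 CPM (4 UMIs) without coculture, a log2 ratio of 9.66 (8.30 to 11.54). Its relative Akr1c13 stood at 103 CPM in the coculture library and 11.9 CPM without coculture (3.11). Basophil or mast cell-like cells, a class with 414 coculture cells and 0 without coculture, held 81.4% of the coculture Akr1c18 UMIs and 45.5% of those of Akr1c13. Akr1c18 also had 104 UMIs in coculture neutrophil-like cells and 0 in those without coculture, at least 44.1-fold higher against the floor of 3 UMIs. The thromboxane synthase Tbxas1 lay between, at 72.1 CPM in the coculture library and 93.0 CPM without coculture, and it reached 253 CPM in coculture megakaryocyte or platelet-like cells. Of 4 breakdown and transport genes, none was higher and 2 were lower, the reductase Ptgr1 (29.3 CPM in the coculture library, 74.6 CPM without coculture, -1.35) and the transporter Slco3a1 (11.7 CPM in the coculture library, 30.1 CPM without coculture, -1.36). Within classes these 2 genes did not move one way. Ptgr1 stood at 56.9 CPM in coculture neutrophil-like cells and 27.0 CPM without coculture (1.07), and its ratio in macrophage-like cells was -0.94. Slco3a1 was at -1.86 in neutrophil-like and 0.95 in macrophage-like cells.

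Only 2 other receptors reached 10 CPM. Ptger3, encoding EP3, a prostaglandin E2 receptor that lowers cyclic AMP, stood at 26.3 CPM in the coculture library and 2.92 CPM without coculture (3.18, 2.84 to 3.52), with 51.8% of its coculture UMIs in megakaryocyte or platelet-like and 37.7% in basophil or mast cell-like cells. Pparg, a nuclear receptor for some prostaglandin products, stood at 4.33 CPM in the coculture library and 10.4 CPM without coculture (-1.26). Of 17 genes of cyclic AMP signalling, 4 were higher, 1 lower and 12 between. The 4 higher genes encode phosphodiesterases, which break down cyclic AMP. They were Pde3b, at 20.8 CPM in the coculture library and 1.76 CPM without coculture (3.56), Pde4b (1.85), Pde7a (1.12) and Pde4d (1.10). The phosphodiesterase Pde4a lay between (0.14), and the adenylate cyclase Adcy7 was lower (-1.36). Of 10 cyclic AMP-responsive genes, 4 were higher (Nr4a2 3.28, Vegfa 1.22, Crem 1.16 and Thbs1 1.12), 3 lower (Atf3 -3.01, Cebpb -1.29 and Dusp1 -1.21) and 3 between, so this group did not move one way.

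Within neutrophil-like cells 42 of these pathway genes reached 10 CPM, of which 11 were higher, 2 lower and 29 in between. Over all 7386 genes there, 12% were higher and 6.54% lower. The median log2 ratio of the pathway genes was 0.33, against 0.10 over all genes. Of 5 phosphodiesterases, 3 were higher, and Pde4a (-0.17) and Pde7a (0.32) lay between. The higher ones were Pde4d (1.32), Pde4b at 77.3 CPM in the coculture cells and 14.9 CPM without coculture, and Pde3b at 34.6 CPM in the coculture cells and 1.73 CPM without coculture. Vegfa stood at 362 CPM in the coculture cells and 47.8 CPM without coculture, Crem at 28.3 CPM in the coculture cells and 6.70 CPM without coculture, and Thbs1 at 5928 CPM in the coculture cells and 1101 CPM without coculture. Pla2g7, a lipase that cleaves platelet-activating factor, stood at 277 CPM in the coculture cells and 26.6 CPM without coculture. The 2 lower genes were Daglb and Slco3a1. In macrophage-like cells 47 genes reached 10 CPM, of which 10 were higher, 3 lower and 34 in between. Over all 8332 genes there, 6.96% were higher and 9.99% lower. The median log2 ratio of the pathway genes was -0.04, against -0.16 over all genes. Pde4b, Pde3b, Crem, Vegfa and Thbs1 were at least 2-fold higher in that class too, and Pde4d was just past 2-fold (1.00012). Pde4a (-0.05) and Pde7a (0.56) lay between. The 3 lower genes were Pla2g15 (-2.13), Daglb (-1.86) and the cyclic AMP-responsive Atf3 (-1.20), and Dusp1, of the same list as Atf3, was at -0.99. Several genes that were lower over all cells lay between in both classes. They were Pparg (0.66 in neutrophil-like and -0.65 in macrophage-like cells), Adcy7 (-0.38 and -0.73), Cebpb (0.26 and -0.27) and Dusp1 (-0.83 in neutrophil-like cells). Of the genes lower over all cells, Daglb alone was lower in both classes.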

How the data were processed

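Single-cell RNA sequencing with a 3' droplet kit was analysed for 2 libraries, 1 per group, taken from the labels' treatment entries. The authors deposited UMI counts per gene and barcode as sparse matrices, not normalized (software version 3.1.0 per the file headers). Per the submitters' processing notes, Cell Ranger and bcl2fastq were used with the mouse build mm10. Annotation release, cell-calling rule and strand setting: not given in the sources used here. Of 47729 gene identifiers, 47224 were in GENCODE M21, whose GRCm38 positions (the same build) were used.

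From these counts, barcodes were kept that had 500 genes or more and no more than 10% of mitochondrial UMIs, leaving 29089241 UMIs in the coculture library and 27784963 without coculture. UMIs were summed per library or class and scaled to CPM. A library at 0 UMIs took a floor of 3 UMIs (0.103 CPM in the coculture library, 0.108 CPM without coculture over all cells), and no fold was formed where the other library was at or under the floor. Intervals are exact (Poisson for CPM, conditional binomial for ratios, Clopper-Pearson for shares) at 95% and cover counting error only. No test was run, since each group has 1 library.

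Cells of both libraries were clustered together (scanpy 1.11.5, igraph 0.11.9; 10000 UMIs per cell, log scale, 2000 variable genes without the 8 genes and the pathway list, 30 components, 15 neighbours, Leiden resolution 0.8). A cluster's name came from the marker set whose mean log2 fold against other cells was highest (markers at 20 CPM or more, pseudocount 5 CPM, folds limited to 5). It was given as "-like" only with 3 or more markers 2-fold up and with no other set better represented in the 10 leading genes. Class names are therefore rebuilt here and may differ from the authors'. No doublet caller was run and doublets were not removed. Named genes were the 8 members, pathway genes at 10 CPM or more in either library and at least 2-fold different, and the 3 most correlated genes per member with 200 or more UMIs. Pla2g4a, Tbxas1, Ptges2 and Pde4a, which lay between over all cells, were named for their roles. Pla2g7, which also lay between over all cells, was named for its level in neutrophil-like cells. The members, gene lists, markers and naming rule were chosen with earlier results of these data known. Alternatives covered the cell filter, scaling (edgeR 4.0.16 TMM, DESeq2 1.42.0 size factors), weighting of cells, clustering, thinning depth and low-count filters. Interval code was tested on simulated data.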

Additional observations from a re-analysis of the deposited data

Results flagged for a closer look

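The log2 ratio of Ptger2, the EP2 receptor gene, had opposite signs in the 2 myeloid classes, at 1.22 (0.54 to 1.92) in neutrophil-like cells and -0.17 (-0.88 to 0.47) in macrophage-like cells. The difference was not tested, and the macrophage-like interval includes 0. Over all kept cells the log2 ratio of Ptger2 was -1.56.

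Among barcodes left out by the cell filter, 129 in the coculture library and 363 without coculture, Ptger4 had 6 UMIs (46.9 CPM) in the coculture barcodes and 5 UMIs (9.82 CPM) without coculture, a log2 ratio of 2.26 (0.28 to 4.31). Over kept cells its log2 ratio was -0.79.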

How the results depend on the processing

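No called value changed sign under any of the alternatives run. Over all cells, the log2 ratios that moved beyond their counting interval did so as follows. Without the 5% of cells with most UMIs, Ptgs2 was 2.73 and Ptger4 -0.56. Without the stromal or endothelial cell-like cluster (chosen after seeing the data), Ptgs2 was 2.79 and Ptges 0.73. Without the macrophage-like clusters (chosen after seeing the data), Ptgs1 was 0.51, Ptgs2 2.46, Ptges 0.56, Ptges3 0.56, Hpgds -0.18, Ptger4 0.23 and Ptgir -1.32. As means of per-cell CPM, Ptgs1 was -0.24, Ptgs2 2.05, Ptges 0.23, Ptges3 0.33, Hpgds 0.10, Ptger2 -1.11, Ptger4 0.088 and Ptgir -1.74. Under each of these 4 settings 1 gene, Ptgs2, was at least 2-fold higher instead of 2. TMM factors gave Ptgs1 0.059 and Ptges3 0.30, and DESeq2 size factors Ptgs1 0.077 and Ptges3 0.32. With TMM the median log2 ratio of all genes was -0.11, against 0.03 unscaled, and 42.6% of called genes were then higher, against 52.2%.

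A filter at 50 CPM kept 3465 genes, of which 403 were higher and 513 lower, and 4 of the 21 pathway genes kept were higher. One at 10 UMIs kept 15674 genes, of which 3668 were higher and 1825 lower, and 22 of 70 pathway genes were higher. The percent of coculture UMIs held by neutrophil-like cells (31.3 for Ptgs1, 39.6 for Ptgs2, 41.4 for Ptges, 59.6 for Ptger2) became 53.3, 64.5, 51.2 and 84.3 at resolution 0.4, 39.3, 57.7, 49.4 and 73.0 at resolution 1.2, and 40.1, 59.6, 50 and 73.0 with the genes left in the clustering. For Ptges3 in eosinophil-like cells (31.4) it was 33.5 at resolution 0.4 and 33.6 with the genes left in. In macrophage-like cells at resolution 1.2, Ptgs2 was 3.94 and Ptges 0.60. Thinned to 1000 UMIs, the log2 ratio of shares was 2.93 for Ptgs2 in all cells and 1.18 for Ptgs1 in neutrophil-like cells. Apart from the shares of UMIs in classes, whose cells changed with the clustering, the cause was not tested. No macrophage-like class of coculture cells formed at resolution 0.4, with the genes left in, or without the deepest cells, so no ratio is given there.

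No paired analysis was possible because each group has 1 library and the labels carry no replicate numbers. Depth limits Hpgds, Ptger2 and Ptges most, with under 300 UMIs in each library.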

Other observations

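Some pathway genes below 10 CPM in both libraries, named after their values were seen, lay mainly in 1 class. Ptgds, encoding the lipocalin-type prostaglandin D synthase, had 282 UMIs in the coculture library and 4 without coculture, with 78.4% of the coculture UMIs in progenitor-like cells (91.9 CPM). Tbxa2r, the thromboxane receptor of platelets, had 97 UMIs in the coculture library and 0 without coculture, at least 30.9-fold higher against the floor of 3 UMIs, and 55.7% of its UMIs were in megakaryocyte or platelet-like cells. Areg, a growth factor gene that cyclic AMP can induce, had 67 UMIs in the coculture library and 2 without coculture, and 86.6% of the coculture UMIs were in the 9 stromal or endothelial cell-like cells. Hpgd, encoding the dehydrogenase that inactivates prostaglandins, had 5 UMIs in the coculture library and 83 without coculture (log2 ratio -4.12, -5.78 to -2.84), of which 77 were in macrophage-like cells.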
